A study of Mus musculus with 3 samples.

Results

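Dendritic cell genes were examined in RNA sequencing of sorted B cells from the mouse spleen. The 9 genes were chosen by name as markers of dendritic cells and were found in the deposited table of 27088 genes, each under 1 gene identifier. They are Flt3, Zbtb46 and Itgax, which mark dendritic cells in general, and markers of single classes. Xcr1 and Clec9a mark conventional type 1 dendritic cells (cDC1). Clec10a and Cd209a mark conventional type 2 dendritic cells (cDC2) and are also found in monocyte-derived dendritic cells. Siglech and Ccr9 mark plasmacytoid dendritic cells (pDC).

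Female BALB/c mice bought at 6 weeks of age were used, and the labels give an age of 13 weeks. Mice of the PBS group were sensitized by intraperitoneal OVA at 10 µg with 2 mg Al(OH)3 on days 0, 7 and 14, received 100 µg OVA in the nose from day 21 through day 27 and again from day 29 through day 35, and were given subcutaneous PBS on days 0, 14 and 28. Mice of the SJMHE1 group had the same OVA schedule and received, on those 3 injection days, 10 µg of SJMHE1, a peptide of the worm Schistosoma japonicum, in incomplete Freund's adjuvant, which the PBS injections lacked, so peptide and adjuvant cannot be told apart. B cells were sorted from the spleen on day 36, and the RNA samples of 3 mice were mixed, giving 1 pooled library per group. The Control group of healthy mice was not analysed here, because no value column could be matched to it by name. Since each group is a single pool, replicates could not be tested, and each difference below describes these 2 libraries, called PBS and SJMHE1, without a replicate check.

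Dendritic cells take up antigen and present it to T cells. Their development depends on the receptor FLT3 and its ligand, and in the mouse spleen they fall into cDC1, which are good at presenting antigen from dead cells to CD8 T cells, cDC2, which mainly prime CD4 T cells, and pDC, which make type I interferon. A sort for B cells removes dendritic cells unless they stick to B cells or pass the gate by chance, and some of the 9 genes are also used by other cells. Itgax (CD11c) is found on macrophages, NK cells and some activated B cells, Flt3 on early lymphoid precursors, Ccr9 on gut-homing T cells and plasmablasts, and Zbtb46 on endothelium and erythroid precursors.

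The promoters of 3 genes are shown because the results turn on the contrast between these genes. Siglech and Cd209a are the genes with the lowest ratios of the SJMHE1 to the PBS library, and Ccr9 is the other pDC gene, with a ratio much closer to 1. Each window of 300 bases ends 50 bases after the start given by RefSeq on GRCm38.p6 and is written 5′ to 3′ on the strand of the gene. Capitals, which show a motif of the other strand as its reverse complement, mark CACCTG, an E-box of the kind bound by E proteins such as TCF4, which directs pDC development, and GAGGAA, the core bound by the myeloid factor PU.1, searched on both strands.
Siglech, chr7:55767934-55768233, plus strand: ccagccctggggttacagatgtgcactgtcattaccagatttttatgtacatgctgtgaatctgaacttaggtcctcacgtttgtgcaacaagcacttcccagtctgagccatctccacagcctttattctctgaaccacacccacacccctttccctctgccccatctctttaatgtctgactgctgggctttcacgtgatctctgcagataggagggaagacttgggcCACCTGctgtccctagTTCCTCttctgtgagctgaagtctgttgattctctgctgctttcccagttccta
Ccr9, chr9:123766961-123767260, plus strand: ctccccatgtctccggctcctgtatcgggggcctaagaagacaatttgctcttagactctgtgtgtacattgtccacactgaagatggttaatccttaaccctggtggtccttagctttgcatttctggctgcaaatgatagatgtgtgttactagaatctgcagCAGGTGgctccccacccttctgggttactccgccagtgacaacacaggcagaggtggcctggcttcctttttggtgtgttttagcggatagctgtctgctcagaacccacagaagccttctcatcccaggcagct
Cd209a, chr8:3748935-3749234, minus strand: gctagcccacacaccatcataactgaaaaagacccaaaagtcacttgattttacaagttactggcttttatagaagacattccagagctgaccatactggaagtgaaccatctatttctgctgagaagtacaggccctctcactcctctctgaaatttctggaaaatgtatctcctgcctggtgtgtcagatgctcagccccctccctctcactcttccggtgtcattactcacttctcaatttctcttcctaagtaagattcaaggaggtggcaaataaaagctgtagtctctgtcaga
Counted from the start, the E-box lies at -20 in Siglech and at -85 in Ccr9, and the PU.1 core lies at -4 in Siglech, while the Cd209a window held 0 of these motifs. Of the 8 genes with a promoter in the RefSeq table, 3 held the E-box (Siglech, Ccr9 and Zbtb46), 1 held the PU.1 core and 0 held GAAA repeated after any pair of bases, a motif bound by IRF factors such as IRF8. Among 27025 promoters of the same length, 5413 (20.03%) held the E-box, 7652 (28.3%) the PU.1 core and 943 (3.49%) the IRF repeat, so these shares of a few genes describe the windows and no more. Clec10a had no entry in that table. The Ccr9 window, and that of Zbtb46 at chr2:181424339-181424638, lie inside the spans of these genes given below and not at their outer 5′ ends.

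The libraries were deep, with counts summing to 48267168 in PBS and 51280237 in SJMHE1. Where no fragment was counted, up to 3 counts remain possible, or 0.0622 and 0.0585 per 1000000 counts. The B cell identity of the sort was checked with 10 B cell genes. Cd79a, the signaling chain of the B cell receptor, had an FPKM (fragments per kilobase of transcript, scaled by the mapped fragments) of 835.02 in PBS and 835.20 in SJMHE1, and Cd79b, the other chain, had 625 and 594.

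All 9 dendritic cell genes were detected in both libraries, at low levels. Their FPKM lay between 0.17 and 3.23 in PBS and between 0.06 and 1.61 in SJMHE1, and they summed to 9.47 and 4.57. The genes took 53.7 of every 1000000 counts in PBS and 30.6 in SJMHE1. Ordered by FPKM, the PBS library ran Itgax, Siglech, Flt3, Ccr9, Cd209a, Zbtb46, Clec9a, Xcr1 and Clec10a. In the SJMHE1 library the order was Itgax, Flt3, Zbtb46, Ccr9, Siglech, Xcr1, Clec9a, Cd209a and Clec10a, so Siglech moved from the second to the fifth place and Zbtb46 from the sixth to the third. Among all detected genes, Siglech ranked 9850 of 22837 in PBS and 14332 of 22532 in SJMHE1, and Zbtb46 ranked 14239 and 12975. Neighbours in the order such as Xcr1 and Clec9a, at 0.36 and 0.40 in PBS and 0.23 and 0.21 in SJMHE1, were not compared by a test. By class, the summed FPKM was 4.93 and 2.95 for the general markers, 0.76 and 0.44 for cDC1, 0.84 and 0.22 for cDC2 and 2.94 and 0.96 for pDC genes. The sum was lower in SJMHE1 in each of the 4 classes.

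**Figure D1:**
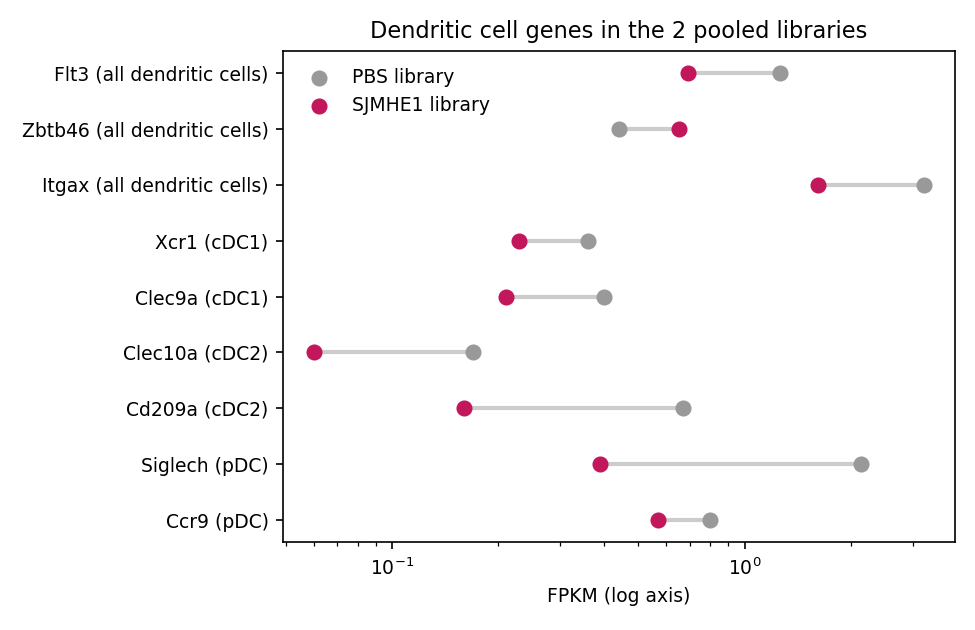
FPKM of the 9 dendritic cell genes (x axis, log scale) in the PBS library (grey) and the SJMHE1 library (red), 1 pooled library per group, with a line joining both values of a gene. The SJMHE1 value lies to the left for 8 genes and to the right for Zbtb46, and the longest lines belong to Siglech (2.14 to 0.39) and Cd209a (0.67 to 0.16).

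Compared with the PBS library, 8 of the 9 genes were lower and 1 was higher in the SJMHE1 library. Among all genes compared, 53.0% were lower. The median log2 ratio of FPKM, SJMHE1 over PBS, was -0.93 over the 9 genes and -0.03 over the 18426 genes compared, which needed an FPKM of at least 0.1 in 1 library and above 0 in both. Clec10a met this filter only through the PBS library. A log2 ratio beyond 1 in either direction was taken as past the threshold. Below -1 were 4 of the 9 genes, Siglech, Cd209a, Clec10a and Itgax, where 9.18% of all genes compared were below -1, and above 1 were 0 of the 9 genes, where 6.21% of all genes were. Low genes pass such a threshold more often. Among the 8005 genes with a mean FPKM in the range of the 9 genes, 53.8% were below 0, 15.6% were below -1 and the median was -0.07. With at least 50 counts over both libraries, 3 of 8 dendritic cell genes were below -1, against 5.31% of 15114 genes. In bulk RNA, fewer cells of a type and less RNA per cell cannot be told apart.

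**Figure D2:**
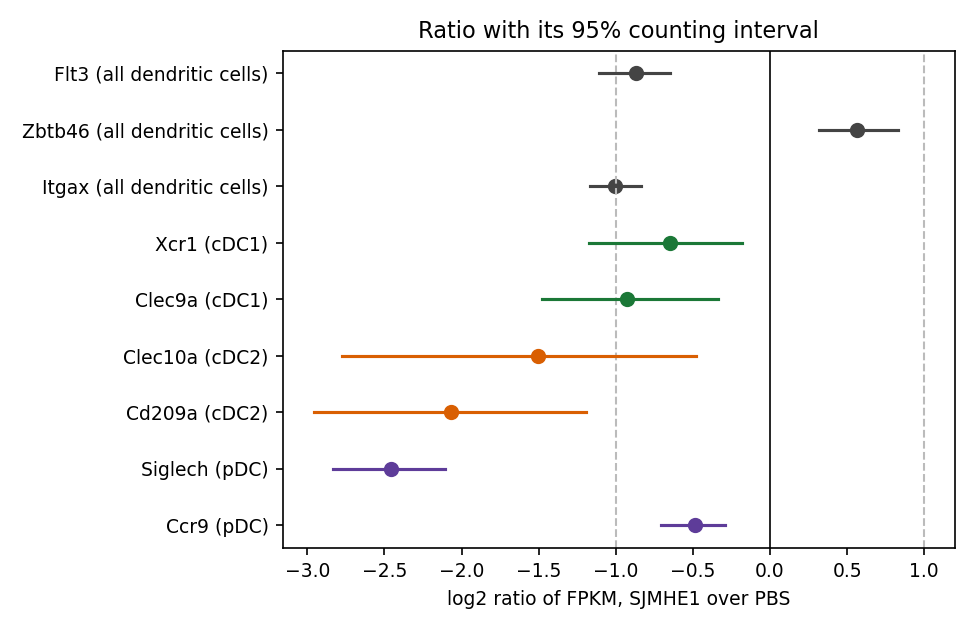
Log2 ratio of FPKM, SJMHE1 over PBS (x axis), for each gene, with the 95% interval from counting error as a bar, dashed lines at the threshold of -1 and 1, and colours for the class of dendritic cell. The bars of Siglech and Cd209a lie wholly below -1, and the bar of Zbtb46 is the 1 that lies above 0.

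The single-gene intervals below are exact Clopper-Pearson intervals at the 95% level and cover counting error only, not differences between mice. The interval lay wholly below 0 for 8 genes and wholly above 0 for 1 gene, and wholly below -1 for 2 genes.

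Among the general markers, Itgax, the integrin chain CD11c, was the most abundant of the 9 genes. It spans 128129547 to 128150657 of chromosome 7 (plus strand) in GRCm38 and had an FPKM of 3.23 with 855 counts in PBS and 1.61 with 452 counts in SJMHE1. This is 2.01-fold lower, with an interval of the log2 ratio from -1.17 to -0.84, so it stood at the threshold rather than clearly past it, and the rounding of FPKM to 2 decimals alone spans -1.01 to -0.998. With TMM or median-of-ratios factors and after centring on the median gene, Itgax did not pass the threshold (log2 ratios of -0.976, -0.957 and -0.9955). In transcript sequence, 8.02% of the windows of 50 bases of Itgax also occur in its neighbour Itgad, the CD11d chain of red pulp macrophages, whose FPKM was 0.66 and 0.91.

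Flt3, the growth factor receptor of dendritic cell precursors, spans 147330741 to 147400489 of chromosome 5 (minus strand). Its FPKM was 1.26 with 428 counts in PBS and 0.69 with 247 counts in SJMHE1. The log2 ratio was -0.87 (interval -1.11 to -0.65), so Flt3 was lower and did not pass the threshold. Zbtb46, a zinc finger repressor of the conventional dendritic cell lineage, went the other way. It spans 181387762 to 181459426 of chromosome 2 (minus strand), and its FPKM was 0.44 with 207 counts in PBS and 0.65 with 326 counts in SJMHE1. The log2 ratio was 0.56, with an interval from 0.32 to 0.83 that met none of the intervals of the other 8 genes.

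The cDC1 genes were both lower and neither passed the threshold. Xcr1, the receptor for the chemokine XCL1, spans 123852315 to 123862029 of chromosome 9 (minus strand) and had an FPKM of 0.36 with 89 counts in PBS and 0.23 with 59 counts in SJMHE1. Its log2 ratio was -0.65 (interval -1.18 to -0.18). Clec9a, a lectin receptor that senses actin filaments of dead cells, spans 129408862 to 129424763 of chromosome 6 (plus strand) and had an FPKM of 0.40 with 74 counts in PBS and 0.21 with 42 counts in SJMHE1. Its log2 ratio was -0.93 (interval -1.48 to -0.33), which overlaps that of Xcr1. Clec9a shares 5.59% of its exonic bases with Clec1b on the same strand, and Clec1b had 0 counts in PBS and 7 in SJMHE1.

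The cDC2 genes both passed the threshold on few counts. Cd209a, a mannose-binding lectin of the DC-SIGN family, spans 3743397 to 3748984 of chromosome 8 (minus strand) and had an FPKM of 0.67 with 58 counts in PBS and 0.16 with 15 counts in SJMHE1. It was 4.19-fold lower, a log2 ratio of -2.07 (interval -2.96 to -1.20). Clec10a, a galactose-type lectin of macrophages and dendritic cells, spans 70156197 to 70170834 of chromosome 11 (plus strand). Its FPKM was 0.17 with 28 counts in PBS and 0.06 with 10 counts in SJMHE1, a log2 ratio of -1.50 (interval -2.77 to -0.48) that includes the threshold, and with a pseudocount of 0.1 the ratio was -0.75. Of its windows of 50 bases, 9.02% occur in another gene, nearly all in its close copy Mgl2, which was counted 0 times in the PBS library and 6 times in the SJMHE1 library, so reads could have been split between them. Cd209a shared 0 windows with other genes.

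The pDC genes were both lower, Siglech by far more than Ccr9. Siglech, a sialic acid-binding receptor that restrains interferon production, spans 55768178 to 55778925 of chromosome 7 (plus strand). Its FPKM was 2.14 with 400 counts in PBS and 0.39 with 77 counts in SJMHE1. It was 5.49-fold lower, with a log2 ratio of -2.46 and an interval from -2.83 to -2.10. Ccr9, the receptor for the gut and thymus chemokine CCL25, spans 123678439 to 123783457 of chromosome 9 (plus strand) and had an FPKM of 0.80 with 454 counts in PBS and 0.57 with 340 counts in SJMHE1. Its log2 ratio was -0.49 (interval -0.71 to -0.29), and the intervals of Siglech and Ccr9 lay far apart. In GENCODE M21, where Ccr9 ends at 123784330 and so differs from the deposited position, 21.5% of its exonic bases overlap other genes, on both strands. Part of its counts could belong to them, but that share describes the GENCODE M21 gene.

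**Figure D3:**
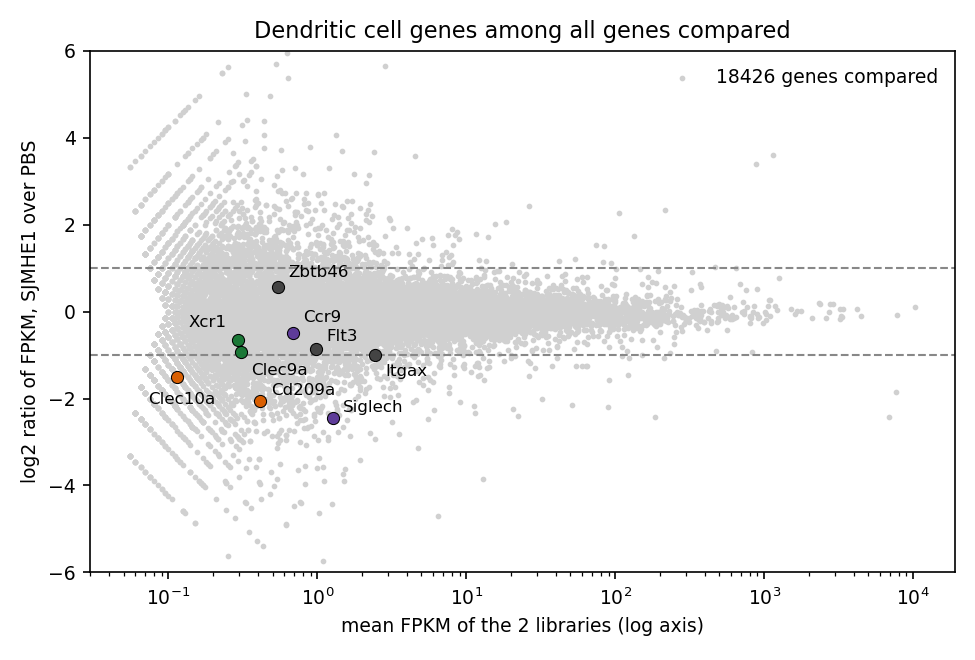
Log2 ratio of FPKM, SJMHE1 over PBS (y axis), against the mean FPKM of both libraries (x axis, log scale) for 18426 genes (grey) and the 9 dendritic cell genes (coloured by class), with dashed lines at -1 and 1; 6 genes beyond a ratio of 6 are not shown. The spread widens toward low FPKM, where Clec10a lies, and Siglech, Cd209a, Clec10a and Itgax lie at or below -1.

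Further genes known from each class of dendritic cell were counted from fixed lists, many of which hold genes that B cells also use. For each list, the same shares of all genes compared apply, 9.18% below -1 and 6.21% above 1. In the FPKM range of the 9 genes, 15.6% were below -1. Of 8 further cDC1 genes, 6 were compared, 2 were below -1, 0 were above 1 and the median was -0.30. Itgae (CD103) had 182 counts in PBS and 79 in SJMHE1 with a log2 ratio of -1.31, and the adhesion molecule Cadm1 had 173 and 74 with -1.30. Batf3, the factor on which cDC1 development depends, had 28 counts in PBS and 0 in SJMHE1. The abundant Wdfy4, needed for cross-presentation and present in B cells, had an FPKM of 67.4 and 68.0, Naaa had 7.55 and 6.93, and Tlr3 had 1.36 and 1.20.

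Of 9 further pDC genes, 9 were compared, 3 were below -1, against 9.18% of all genes, 0 were above 1 and the median was -0.19. Runx2, a factor that pDC need to leave the bone marrow, had 470 counts in PBS and 129 in SJMHE1, a log2 ratio of -1.96 (interval -2.24 to -1.66). Klk1 had 92 and 24 counts with -2.02, and Cox6a2 had 36 and 14 with -1.53. The genes of this list that were highest in these libraries were closer to 0, with log2 ratios of -0.14 for the interferon-induced Bst2, -0.18 for Pacsin1 and -0.09 for Tcf4. Smim5 had the ratio farthest above 0, at 0.91.

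Of 9 further cDC2 and monocyte-derived dendritic cell genes, 4 were compared, 0 were past the threshold in either direction and the median was -0.32. Itgam (CD11b) had an FPKM of 5.93 in PBS and 4.55 in SJMHE1, Sirpa had 4.55 and 3.42, and Epcam had 1.85 and 1.54. Clec4a4, a lectin of the CD4-type cDC2 subset, had 11 counts in PBS and 0 in SJMHE1, whereas Cd209d had 0 and 14.

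Of 9 genes of mature, migrating dendritic cells, 8 were compared and the median was -0.93. Below -1 were 4, against 9.18% of all genes, and 0 were above 1. The chemokine Ccl22 had 56 counts in PBS and 10 in SJMHE1, a log2 ratio of -2.62 (interval -3.70 to -1.58), and with an FPKM of 0.43 and 0.07 it met the filter only through the PBS library. The calcium channel subunit Cacnb3 had -1.84, the actin bundler Fscn1 had -1.36 and the chemokine Ccl5, which T and NK cells also make, had -1.05. The highest genes of the list are also B cell activation genes, and their log2 ratios were -0.65 for Cd83, -0.82 for the homing receptor Ccr7 and -0.12 for Relb. Of the 8 genes compared, 1 was above 0. This was Il4i1, with an FPKM of 8.77 in PBS and 11.46 in SJMHE1 and a log2 ratio of 0.39 (interval 0.30 to 0.47). Ccl17 had 0 counts in PBS and 21 in SJMHE1.

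Of 12 transcription factors of dendritic cell development, 11 were compared, 1 was below -1, 0 were above 1 and the median was -0.09. With 9.18% of all genes below -1, 1 of 11 is near that share. Spib, Irf4 and Irf8, which B cells share with dendritic cells, had log2 ratios of 0.17, -0.37 and -0.05, and Nfil3 had -1.24. Of 6 ligands and growth factors, 5 were compared, 1 was below -1, against the same 9.18%, 0 were above 1 and the median was -0.89. Flt3l, the ligand of FLT3, had an FPKM of 8.95 in PBS and 9.67 in SJMHE1, against 1.26 and 0.69 for its receptor. Csf1 had 2.04 and 1.02, the XCR1 ligand Xcl1 had 25 and 15 counts, and the gene below -1, Csf2, had 12 and 6 counts. The log2 ratio of Csf2 was -1.05, with a counting interval from -2.78 to 0.44 that includes 0.

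Markers of T and NK cells were also lower in the SJMHE1 library, with log2 ratios below 0 for all 10 T cell and all 7 NK cell genes. Among all genes compared, 53.0% were below 0. Of the 10 T cell genes, 9 were below -1, against 9.18% of all genes, and the median was -1.96. Their summed FPKM was 55.5 in PBS and 32.2 in SJMHE1. Of this sum, Lck, a kinase that some B cells also express, held 27.9 and 25.2. Trac had a log2 ratio of -2.48, Cd4 -1.73, Cd8b1 -2.96, Cd28 -2.51, Cd8a -2.22, Cd3e -2.18, Cd3d -1.55, Cd3g -1.42 and Cd5 -1.39, and Cd4 and Cd8a are also carried by subsets of mouse dendritic cells. CD5 is also part of the gate by which the authors define B10 cells, a B cell subset. Of the 7 NK cell genes, 5 were below -1, against the same 9.18%, with a median of -1.22 and a summed FPKM of 14.5 and 6.66. These 5 were Klre1 (-2.32), Nkg7 (-1.78), Klrb1c (-1.51), Ncr1 (-1.22) and Gzma (-1.15), while Prf1 had -0.45. Klre1, at an FPKM of 0.25 and 0.05, and Klrb1c, at 0.20 and 0.07, met the filter only through the PBS library, where they were higher.

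Myeloid markers went both ways. Of 14 macrophage and monocyte genes, 2 were below -1 and 3 were above 1, against 9.18% and 6.21% of all genes compared. The median was 0.07, and 8 of the 14 were above 0. Their summed FPKM was 122 and 67.2, of which Lyz2 held 88.8 and 37.4. Lyz2 had -1.25 and Marco, which met the filter only through the PBS library at an FPKM of 0.22 and 0.03, had -2.87. The complement genes C1qb and C1qc had 1.01 and 1.20 and Cd14 had 1.04. The counting intervals of these 3 genes lay above 0 but include the threshold (0.59 to 1.43, 0.86 to 1.54 and 0.72 to 1.35). The abundant Cd68 and Adgre1 had -0.90 and -0.55. Of 6 neutrophil genes, 0 were past the threshold, with a median of -0.25, a summed FPKM of 315 and 415 and log2 ratios of 0.44 for S100a9, 0.64 for S100a8 and -0.28 for Camp. None of these 4 lists had a gene at 0 counts in either library. Of the 10 B cell genes, 0 were past the threshold in either direction, with a median of 0.008 and a summed FPKM of 3096 and 3249. They were not all level between the libraries. Cr2 was farthest from 0, with an FPKM of 136 in PBS and 218 in SJMHE1 and a log2 ratio of 0.68 (interval 0.67 to 0.69). The part of T cell, NK cell and myeloid RNA in the values of the dendritic cell genes was not tested.

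**Figure D4:**
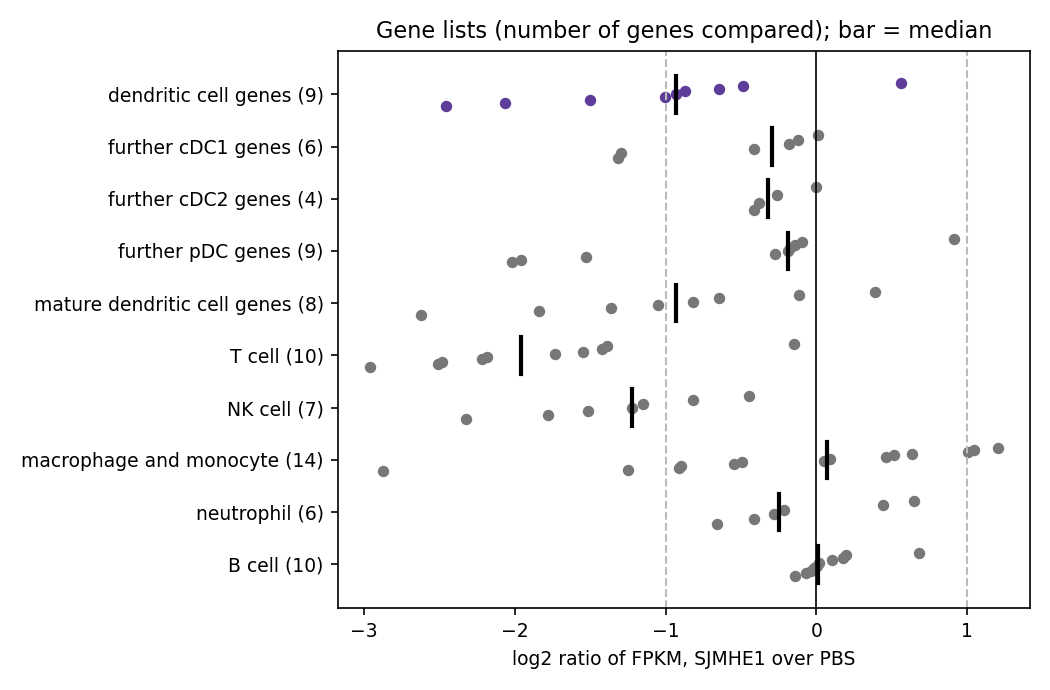
Log2 ratio of FPKM, SJMHE1 over PBS (x axis), for single genes (points) of 10 gene lists, with the number of genes compared in parentheses, the median as a black bar and dashed lines at -1 and 1. The median was -0.93 for the dendritic cell genes, -1.96 for T cell, -1.22 for NK cell, 0.07 for macrophage and monocyte and 0.008 for B cell genes.

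Itgax is also carried by CD11c+ B cells, a subset driven by Tbx21 (T-bet). Of 5 genes of that subset, 5 were below 0, 0 were past the threshold and the median was -0.38. Fcrl5 had an FPKM of 14.8 in PBS and 13.1 in SJMHE1, Zbtb32 had 12.2 and 6.88, and Tbx21 had 4.48 and 3.87. Cxcr3, at 1.34 and 0.67 with 128 and 68 counts, stood at the threshold with a log2 ratio of -1. For the lists of this paragraph, 9.18% of all genes compared were below -1. Of 7 B cell precursor genes, which bear on Flt3, 2 were compared and 1 was below -1. This was Il7r, also a T cell gene, with 660 counts in PBS and 113 in SJMHE1, while Cd93 had 680 and 695. The genes not compared went both ways on few counts. Dntt had 27 and 0, Rag1 had 30 and 11 and Rag2 had 4 and 0, whereas Vpreb1 had 0 and 10. Igll1 had 0 in both. Of 5 plasma cell genes, which bear on Ccr9, 1 was below -1, Tnfrsf17 with 87 and 42 counts, and the median was -0.31, with Jchain at an FPKM of 388 and 313, Xbp1 at 25.5 and 33.8 and Sdc1 at 1047 and 812 counts. Whether these cells contributed to Itgax, Flt3 and Ccr9 was not tested.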

How the data were processed

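RNA of sorted spleen B cells was depleted of rRNA and sequenced, with 1 pooled library per group. The authors deposited unnormalized counts for each gene, and the FPKM values deposited by the authors are scaled by gene length and mapped fragments and rounded to 2 decimals. The submitters' processing notes name mm10, bcl2fastq 2.0, HISAT2, StringTie, DESeq2 and limma without roles. The counting tool, the annotation and the use of strand are not given in the sources used here. No column was matched to the Control sample, and 2 further value columns that match no sample by name were not used.

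Log2 ratios of FPKM were taken without a pseudocount. A gene entered with 0.1 FPKM or more in either library and a value above 0 in both. Intervals are exact Clopper-Pearson intervals of the counts at the 95% level, scaled by the library sums. edgeR's quasi-likelihood test needs replicates and could not be fitted, so no p-value was computed. The main values were compared with pseudocounts, other filters, scaled counts, TMM and median-of-ratios factors, centring, another threshold and protein-coding genes. The calculations were tested on simulated data. Gene positions are those of the table, and 8 of the 9 genes, all but Ccr9, have the same position in GENCODE M21. Shared windows of 50 bases were searched among all its transcripts. From each of 20 gene lists, the highest 3 genes and those past the threshold are named, and a gene on several lists counts under each. The values of 1 gene are not reported here. The 9 genes, the lists and the settings were chosen with earlier results of these data known. Calculations used edgeR 4.0.16 in R 4.3.3 for TMM, and otherwise Python 3.11.15 (numpy 2.4.6, pandas 2.3.3, scipy 1.17.1, matplotlib 3.10.9).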

Additional observations from a re-analysis of the deposited data

How the results depend on the processing

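No paired analysis was possible because the values come from single pools without any test. The number of dendritic cell genes below -1, 4 in the main setting, was 2 with a pseudocount of 0.1 (Cd209a and Siglech; 5.18% of all genes compared), 1 with a pseudocount of 1 (Siglech; 0.792%) and 2 where 1 library had to reach an FPKM of 1 (Itgax and Siglech, of 3 genes compared; 3.57%). It was 7 with a threshold of 0.5, which 18.3% of all genes passed downward, and 1 gene, Zbtb46, was above that threshold, as were 13.2% of all genes. Itgax left the 4 genes with TMM, with median-of-ratios factors and after centring, which left 3, where 8.74% to 9.14% of all genes were below -1. The median of -0.93 was -0.21 with a pseudocount of 1, which shrinks the ratios of low genes by construction, and all 9 single ratios left their counting intervals in that setting alone. It lay between -1.004 and -0.75 in the other settings. None of the 74 single-gene values changed sign, and 65 stayed within their counting intervals. Depth limits Clec10a and Cd209a, which rest on 10 and 15 counts in the SJMHE1 library.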

Other observations

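Lectin receptors related to Clec9a, Clec10a and Cd209a differed among themselves. Of 10 such genes in the table, 3 were compared. Clec7a (Dectin-1), the receptor for fungal beta-glucan, had an FPKM of 4.43 with 643 counts in PBS and 1.15 with 178 counts in SJMHE1, a log2 ratio of -1.95 (interval -2.18 to -1.69). Clec12a, an inhibitory receptor of myeloid cells, had 1.64 and 0.85, a log2 ratio of -0.95 that did not pass the threshold. Clec2d, which lymphocytes express as a ligand for an NK cell receptor, had 17.9 and 32.5 with a log2 ratio of 0.86. The other 7 genes had 0 counts in at least 1 library. Cd209b and Cd209e had 0 in both, Cd209c had 6 and 0, Cd209g had 2 and 0, Cd209d had 0 and 14, Mgl2 had 0 and 6, and Clec1b had 0 and 7.

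The growth factor receptors of myeloid precursors were lower or little different in the SJMHE1 library. Of 5 genes, 1 was below -1, against 9.18% of all genes compared, 0 were above 1 and the median was -0.50. Csf2ra, the ligand-binding chain of the GM-CSF receptor, had an FPKM of 7.20 with 1138 counts in PBS and 3.06 with 514 counts in SJMHE1, a log2 ratio of -1.23 (interval -1.38 to -1.08). Csf2rb, the shared signaling chain of that receptor, had 6.86 and 5.83 with a log2 ratio of -0.23, and the G-CSF receptor Csf3r had 16.2 and 8.37 with -0.96.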
